A study of Mus musculus with 12 samples.

Results

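The genes described here are 42 interferon-stimulated genes, that is, genes whose transcription rises in cells that sense interferon. They were listed by symbol and followed on 12 one-colour bead arrays of newborn mouse tissue. Of the 42, 41 had a probe on the array, and 37 had at least 1 probe with a detection p under 0.05 on at least 3 arrays. These 37 stand among 12099 genes measured by the same criterion. Ifi44 had no annotated probe. Ifit1 and Xaf1 were detected on 0 arrays, Parp9 on 1 and Mx1 on 2, and these 4 genes were not compared. Each gene was read by its brightest detected probe, and the rule itself uses no difference between genotypes, although the list was drawn up with earlier results of these data known.

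The arrays form 4 groups of 3. Epidermis was taken from Krt1-/- and from Krt1+/+ mice, and so was skin of full thickness. All mice were newborn (P0, postnatal day 0) on the C57BL/6 background. Krt1-/- mice lack keratin 1, a keratin of the differentiating layers of the epidermis. Krt1+/+ mice carry the gene. The sources used here do not give how the Krt1 allele was made, or if each array stands for its own animal. The p-values thus reflect the spread among arrays, and that spread may be technical.

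Interferons are secreted proteins that bind receptors on the cell surface. Type I and type III interferons activate the kinases Jak1 and Tyk2, which act on Stat proteins. Stat2 and Irf9 are parts of the complex ISGF3, which binds interferon-stimulated response elements in the promoters of target genes. Type II interferon acts through Jak1 and Jak2 and a different promoter element, the gamma-activated sequence. The induced genes encode sensors of foreign nucleic acid, enzymes that block viral replication, parts of the antigen-presentation machinery, and brakes on the pathway itself. Keratinocytes, the main cells of the epidermis, carry receptors for these interferons.

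Promoter windows of 300 bases, from 250 before to 50 after the annotated start, were read from RefSeq on the build GRCm38.p6. A window was present for 33 of the 42 genes, with 39 windows in all. Usp18, Mx1, Mx2, Oas2, Parp9, Parp14, Dhx58, Zbp1 and Rtp4 had none. The core of the interferon-stimulated response element, read as GAAA, any 2 bases and GAAA again, was searched on both strands, and overlapping matches were counted. It was present in 16 of the 39 windows (41.0%), against 1131 of all 32851 promoter windows of the same length (3.44%). Of 25 matches, 20 lay in the 150 bases before the start. The stretches below show the match in capitals with 20 bases on either side, 5′ to 3′ on the strand of the gene. They belong to genes whose values are described further on.
Isg15: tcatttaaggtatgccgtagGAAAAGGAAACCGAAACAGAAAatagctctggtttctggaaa
Oas1g: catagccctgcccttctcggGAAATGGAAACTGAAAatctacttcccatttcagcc
Oas1a: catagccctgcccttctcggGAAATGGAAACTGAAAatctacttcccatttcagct
Ifit3: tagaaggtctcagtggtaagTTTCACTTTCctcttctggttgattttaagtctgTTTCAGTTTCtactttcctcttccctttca
Bst2: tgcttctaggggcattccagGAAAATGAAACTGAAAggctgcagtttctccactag
Rsad2: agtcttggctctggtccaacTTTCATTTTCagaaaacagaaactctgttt
Gbp2: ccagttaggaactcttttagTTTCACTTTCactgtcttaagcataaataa
Gbp3: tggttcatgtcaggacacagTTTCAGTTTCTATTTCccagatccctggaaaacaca
Igtp: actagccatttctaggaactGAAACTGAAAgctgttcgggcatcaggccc
Irgm1: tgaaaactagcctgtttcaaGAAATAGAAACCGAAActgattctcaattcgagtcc

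The Isg15 stretch lies at chr4:156200855-156200916 on the minus strand and holds 3 overlapping matches. Oas1g (chr5:120887596-120887651, minus) and Oas1a (chr5:120907510-120907565, minus) are identical at 55 of the 56 bases shown. Those of Bst2 (chr8:71537567-71537622, minus), Gbp3 (chr3:142559979-142560034, plus) and Irgm1 (chr11:48871415-48871470, minus) hold 2 overlapping matches each. Ifit3 (chr19:34583353-34583436, plus) holds 2 separate matches. Single matches are shown for Rsad2 (chr12:26456543-26456592, minus), Gbp2 (chr3:142620584-142620633, plus) and Igtp (chr11:58199502-58199551, plus). The gamma-activated sequence TTCNNNGAA, which reads the same on both strands, was present in 9 of the 39 windows (23.1%), against 8.30% of all windows. The 2 motifs overlapped in 1 of the 39 windows. A match is a run of letters and was not measured as a binding site.

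Between 17184 and 19931 of the 45281 probes were detected per array, and arrays of 1 group correlated at 0.978 to 0.988. Krt1, the targeted gene, was read by probe ILMN_2651772. In Krt1-/- skin its raw signal ran from 183 to 319, against 1794 to 5915 in Krt1+/+ skin, and Krt1 fell by 4.71 on the log2 scale (26.1-fold lower, adjusted p = 8.1e-05). On the arrays labelled Krt1-/- epidermis it ran from 987 to 2921, against 1417 to 5954 in Krt1+/+ epidermis, a log2 change of -1.08 that did not pass the test (adjusted p = 0.18). The sources used here do not place the probe relative to the deletion. Each epidermis direction below, and with it the average of both tissues, depends on those array labels being right. Krt1-/- skin and Krt1+/+ epidermis fill the first 6 sample columns of the deposited table, and Krt1-/- epidermis and Krt1+/+ skin the last 6. Probes undetected on all arrays also separated along this line: arrays of different groups correlated at -0.044 within a set of 6 and at -0.131 across the sets. Within a tissue, genotype and position in the table cannot be told apart. A shift between the sets that adds to the log2 value cancels in the average of the epidermis and skin effects, and doubles in their difference. For this reason the counts and medians of the interferon-stimulated genes, and which of them passed, are also given for the average. Most values of single interferon-stimulated genes below are given by tissue alone, and the limit of table position applies to them.

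All 37 genes had a positive log2 change, Krt1-/- minus Krt1+/+, in the average of both tissues. Of these, 29 rose (78.4%), where a gene counts as having risen or fallen when its adjusted p was under 0.05. Oas1a met the detection criterion through Krt1-/- arrays alone (2 in epidermis and 1 in skin), so its sign is not independent of that criterion. Oas3, Oasl1, Psmb8 and Rtp4 were detected on fewer than 3 Krt1+/+ arrays and met it only with Krt1-/- arrays counted. The same limit applies to their signs, and Oasl1, Psmb8 and Rtp4 are among the 29 that rose. Of all genes measured, 10.9% rose in that average and 13.2% fell, or 24.2% in either direction. The median change of the 37 genes was 1.00 on the log2 scale, against -0.05 for all genes; it was 0.47 without background correction and 0.48 in the deposited normalized table. With the epidermis labels exchanged, the average would be below 0 for 29 of the 37 genes and above 0 for 8, with a median of -0.36, and 10 would pass below 0 and 2 above. The genes that did not pass in the average were Ifih1, Zbp1, Irf1, Oas1a, Oas3, Ifit2, Isg20 and Rsad2, with changes of 0.22 for Oas3 to 1.13 for Rsad2. The same genes were compared within each set of array positions. Between the first 6 columns (Krt1-/- skin minus Krt1+/+ epidermis) 29 members rose, against 13.8% of all genes. Between the last 6 (Krt1-/- epidermis minus Krt1+/+ skin) 18 rose, against 20.7% of all genes, and 0 fell. Each of these comparisons also sets one tissue against the other.

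In epidermis 28 of the 37 genes rose (75.7%) and 0 fell, against 15.0% of all genes rising and 16.8% falling (31.8% either way). The median change was 1.27 for the members and -0.00 for all genes, and the members' median was 0.60 without background correction and 0.60 in the deposited normalized table. In skin 14 rose (37.8%) and 0 fell, against 14.4% of all genes rising and 16.2% falling (30.7% either way). The median change there was 0.60 for the members and -0.07 for all genes. The skin count moved with single arrays: 9 members passed in either direction without Krt1-/- skin replicate 1, 9 without Krt1+/+ skin replicate 3, and 8 with median centring in place of quantile normalization. Of the 37 genes, 11 rose in both tissues (29.7%, against 3.30% of all genes): Ddx58, Irf9, Stat2, Oas1g, Oasl2, Mx2, Isg15, Usp18, Trim25, Dtx3l and Rtp4. All 3 Krt1-/- arrays lay above all 3 Krt1+/+ arrays for 29 genes in epidermis (21.9% of all genes), 18 in skin (19.5%) and 13 in both (4.72%). The reverse order was seen for 1 gene in epidermis, Ifih1 (23.6% of all genes), and for 0 in skin (23.9%). Of the 37 genes, 15 had a further detected probe, and not every call held by it. In epidermis 12 of the 15 rose by the brightest probe, and 4 of these (Oasl1, Parp14, Psmb8 and Trim25) did not pass by a further one. In skin 7 rose, and 4 of these (Dtx3l, Irf9, Oasl2 and Usp18) did not. In the average 13 rose, and 6 (Dhx58, Dtx3l, Oasl1, Parp14, Psmb8 and Trim25) did not. Adjusted p-values of further probes come from a fit over probes.

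In bulk tissue, a change in the number of cells that express a gene and a change in RNA per cell cannot be told apart.

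**Figure D1:**
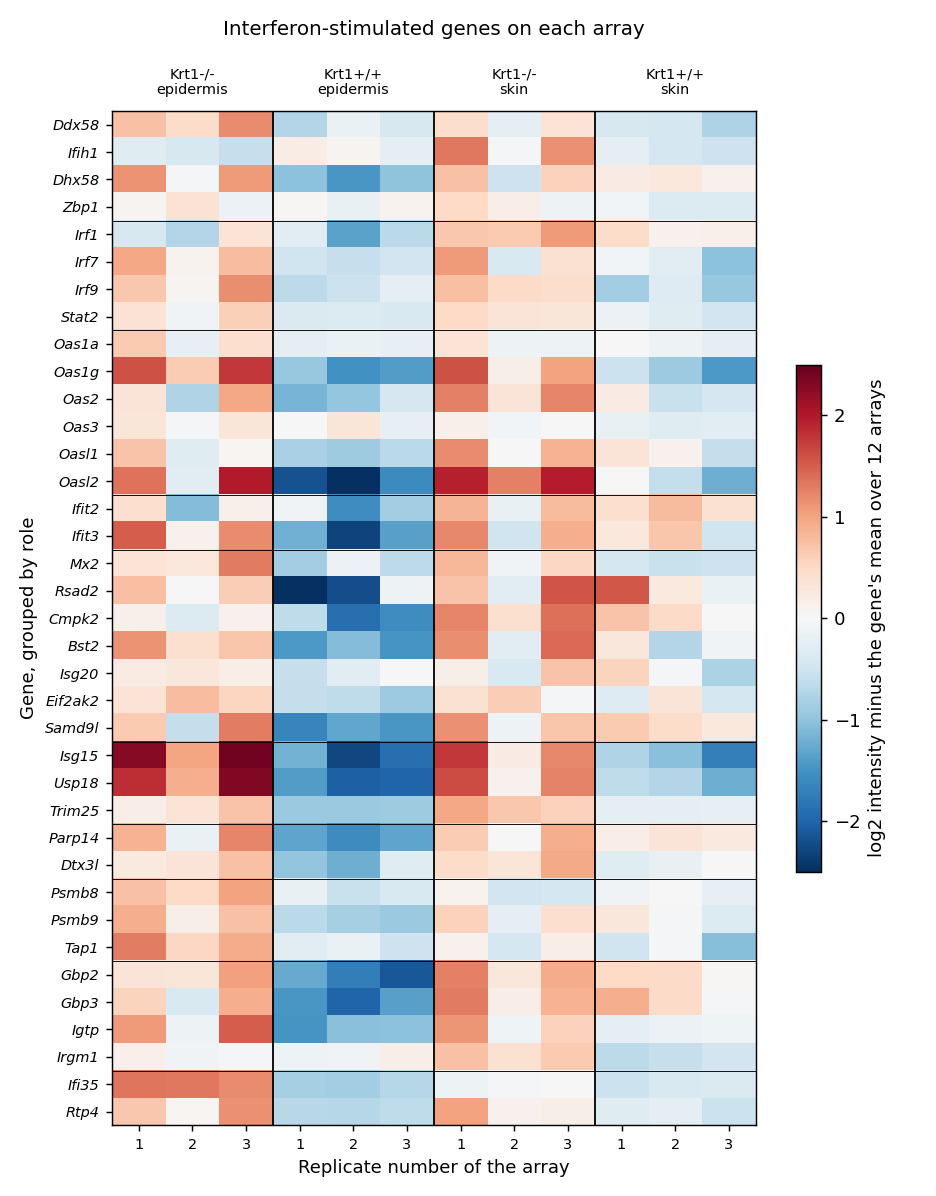
Heat map of the 37 measured genes (rows, grouped by role) on the 12 arrays (columns, by labelled group and replicate), coloured by log2 intensity minus the gene's mean over all arrays. The Krt1-/- columns are redder than the Krt1+/+ columns of the same tissue for most rows, and replicate 2 of each Krt1-/- group is paler than the others.

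**Figure D2:**
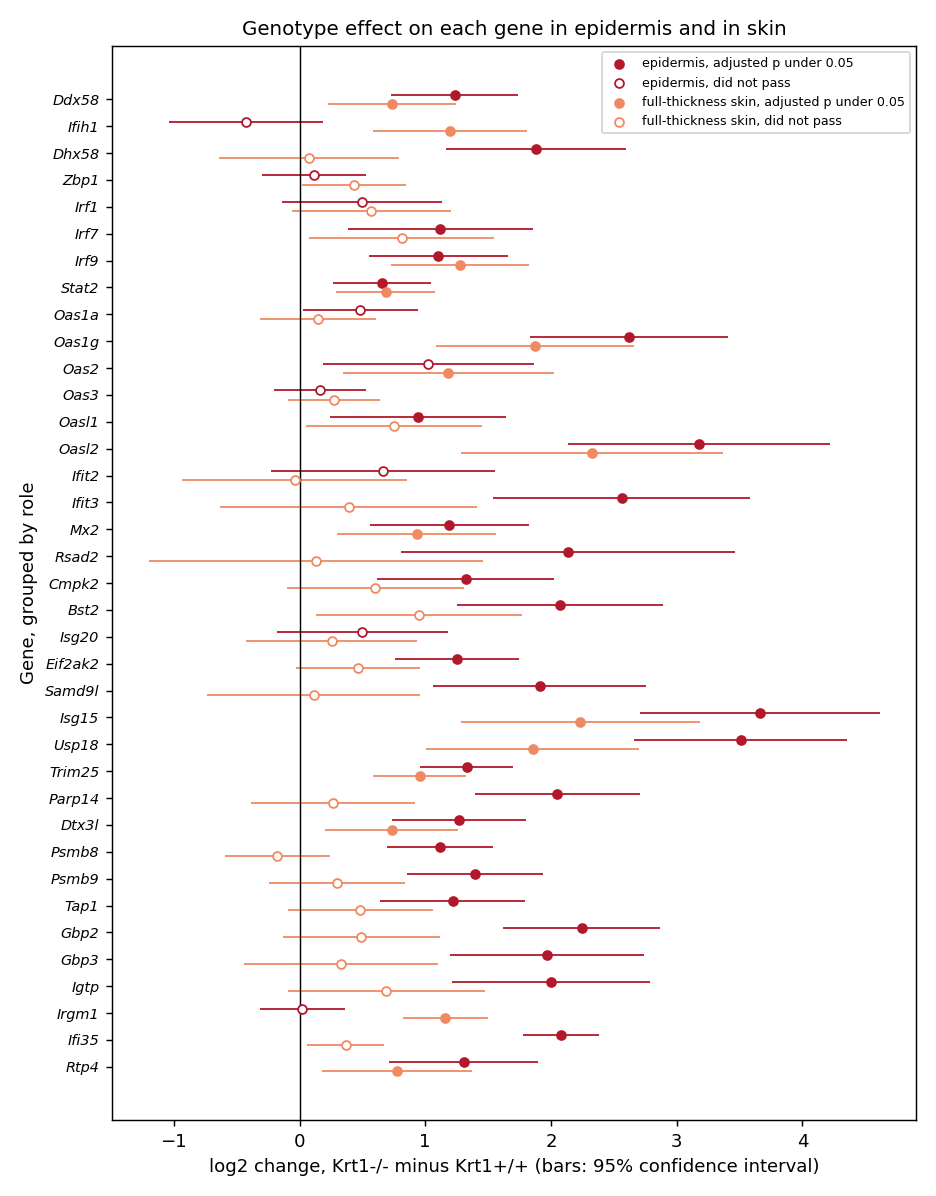
Log2 change, Krt1-/- minus Krt1+/+, for each gene in epidermis (dark) and full-thickness skin (light), with 95% confidence intervals and filled points where the adjusted p was under 0.05. In epidermis 28 points are filled and in skin 14, all to the right of 0.

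The nucleic acid sensors changed unevenly. Ddx58, which encodes the RNA sensor RIG-I, rose by 1.23 in epidermis (adjusted p = 0.0015) and by 0.73 in skin (adjusted p = 0.030) on the log2 scale. Dhx58, its regulatory relative LGP2, rose in epidermis by 1.88 (3.68-fold, adjusted p = 9.5e-04) and read 0.08 in skin (adjusted p = 0.89); it was detected on 2 of 3 Krt1+/+ epidermis arrays. Its 2 further probes rose in epidermis by 1.85 and 1.02. Ifih1, the long-RNA sensor MDA5, rose in skin by 1.20 (2.29-fold, adjusted p = 0.0065). In epidermis Ifih1 was not above background on any array labelled Krt1-/- and was detected on 2 of 3 Krt1+/+ arrays (change -0.42, adjusted p = 0.28). Zbp1, a sensor of Z-form nucleic acid, changed by 0.12 and 0.43 in epidermis and skin and passed in neither.

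Of the 4 transcription factors, 3 rose in the average, beside 10.9% of all genes. Irf9, the DNA-binding subunit of ISGF3, read 8.30, 7.69 and 8.79 on the arrays labelled Krt1-/- epidermis, against 6.98, 7.10 and 7.38 in Krt1+/+ epidermis, as normalized log2 intensity. In Krt1-/- skin it read 8.39, 8.11 and 8.08, against 6.77, 7.30 and 6.68 in Krt1+/+ skin. The genotypes did not overlap in either tissue, and Irf9 rose by 1.10 ± 0.26 (SE) in epidermis and 1.27 ± 0.26 in skin (adjusted p = 0.0052 and 0.0023). By its second probe Irf9 rose by 0.99 in epidermis (adjusted p = 0.0068) and read 0.32 in skin (adjusted p = 0.36).

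Stat2, a subunit of ISGF3, read 5.96, 5.52 and 6.20 on the arrays labelled Krt1-/- epidermis and 5.24, 5.26 and 5.22 in Krt1+/+ epidermis. The Krt1-/- skin arrays read 6.10, 5.93 and 5.91 and the Krt1+/+ skin arrays 5.46, 5.30 and 5.13. It rose in both tissues, by 0.66 ± 0.18 (adjusted p = 0.015) and 0.68 ± 0.18 (adjusted p = 0.012), with no overlap. The epidermis call ended without Krt1-/- epidermis replicate 3 (adjusted p = 0.064), and both tissue calls ended with median centring (adjusted p = 0.053 and 0.12).

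Irf7, which drives transcription of interferon genes themselves, read 7.32, 6.43 and 7.11 on the arrays labelled Krt1-/- epidermis, against 5.85, 5.77 and 5.87 in Krt1+/+ epidermis. Values were 7.42, 5.97 and 6.73 in Krt1-/- skin and 6.27, 6.09 and 5.33 in Krt1+/+ skin, so that the groups overlapped there through Krt1-/- skin replicate 2. Irf7 rose by 1.12 ± 0.34 in epidermis (adjusted p = 0.023), and its skin change of 0.81 ± 0.34 did not pass (adjusted p = 0.087). Without Krt1-/- skin replicate 2 the skin change was 1.18 (adjusted p = 0.016). The epidermis call ended without Krt1-/- epidermis replicate 1 or 3 or Krt1+/+ epidermis replicate 2 (adjusted p = 0.089, 0.066 and 0.066). Irf1, which is also induced by type II interferon, changed by 0.50 and 0.57 in epidermis and skin and passed in neither. Its 2 further probes disagree: one rose by 0.97 in epidermis (adjusted p = 0.0033) and read -0.38 in skin, and the other read -0.12 and -0.08.

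The 3 genes grouped here as the ISG15 system, Isg15, Usp18 and Trim25, rose in both tissues by their brightest probes. Of all genes, 3.30% did so. Uba7 and Ube2l6, which also belong to that system, were listed with the further interferon-induced genes. In skin Uba7 averaged 7.57 in Krt1-/- and 7.54 in Krt1+/+ mice, and Ube2l6 averaged 5.03 and 5.14. On the arrays labelled Krt1-/- epidermis Uba7 averaged 6.02, against 5.47 in Krt1+/+ epidermis, and Ube2l6 5.19, against 4.58. Isg15 encodes a ubiquitin-like protein that is attached to other proteins. It read 8.74, 7.46 and 8.88 on the arrays labelled Krt1-/- epidermis, against 5.29, 4.20 and 4.59 in Krt1+/+ epidermis, where it was detected on 1 of 3 arrays. For full-thickness skin the arrays gave 8.24, 6.67 and 7.68 in Krt1-/- and 5.71, 5.43 and 4.76 in Krt1+/+ mice. The lowest Krt1-/- array stood above the highest Krt1+/+ array in both tissues. Isg15 rose by 3.66 ± 0.44 in epidermis (12.7-fold, adjusted p = 6e-05) and by 2.23 ± 0.44 in skin (4.70-fold, adjusted p = 0.0021).

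Usp18 encodes the protease that removes ISG15 from proteins and also damps signalling at the type I receptor. It read 8.58, 7.64 and 9.05 on the arrays labelled Krt1-/- epidermis, against 5.33, 4.68 and 4.72 in Krt1+/+ epidermis, with 2 of 3 Krt1+/+ arrays detected. In Krt1-/- skin it read 8.36, 6.83 and 7.96, against 6.09, 5.99 and 5.5 in Krt1+/+ skin. Usp18 rose by 3.51 ± 0.39 in epidermis (11.4-fold, adjusted p = 3.5e-05) and by 1.86 ± 0.39 in skin (3.62-fold, adjusted p = 0.0033), again without overlap. By its second probe Usp18 rose by 0.96 in epidermis (adjusted p = 0.0023) and read 0.22 in skin (adjusted p = 0.45).

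Trim25, a ubiquitin ligase that activates RIG-I, varied little among Krt1+/+ arrays. It read 9.21, 9.38 and 9.77 on the arrays labelled Krt1-/- epidermis and 8.11, 8.11 and 8.15 in Krt1+/+ epidermis. The Krt1-/- skin arrays read 10.01, 9.73 and 9.62 and the Krt1+/+ skin arrays 8.81, 8.82 and 8.85. It rose by 1.33 ± 0.17 (2.51-fold, adjusted p = 1e-04) and 0.96 ± 0.17 (1.94-fold, adjusted p = 0.0011) in epidermis and skin. Its second, dimmer probe read -0.02 in epidermis (adjusted p = 0.96) and rose by 0.86 in skin (adjusted p = 0.012).

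**Figure D3:**
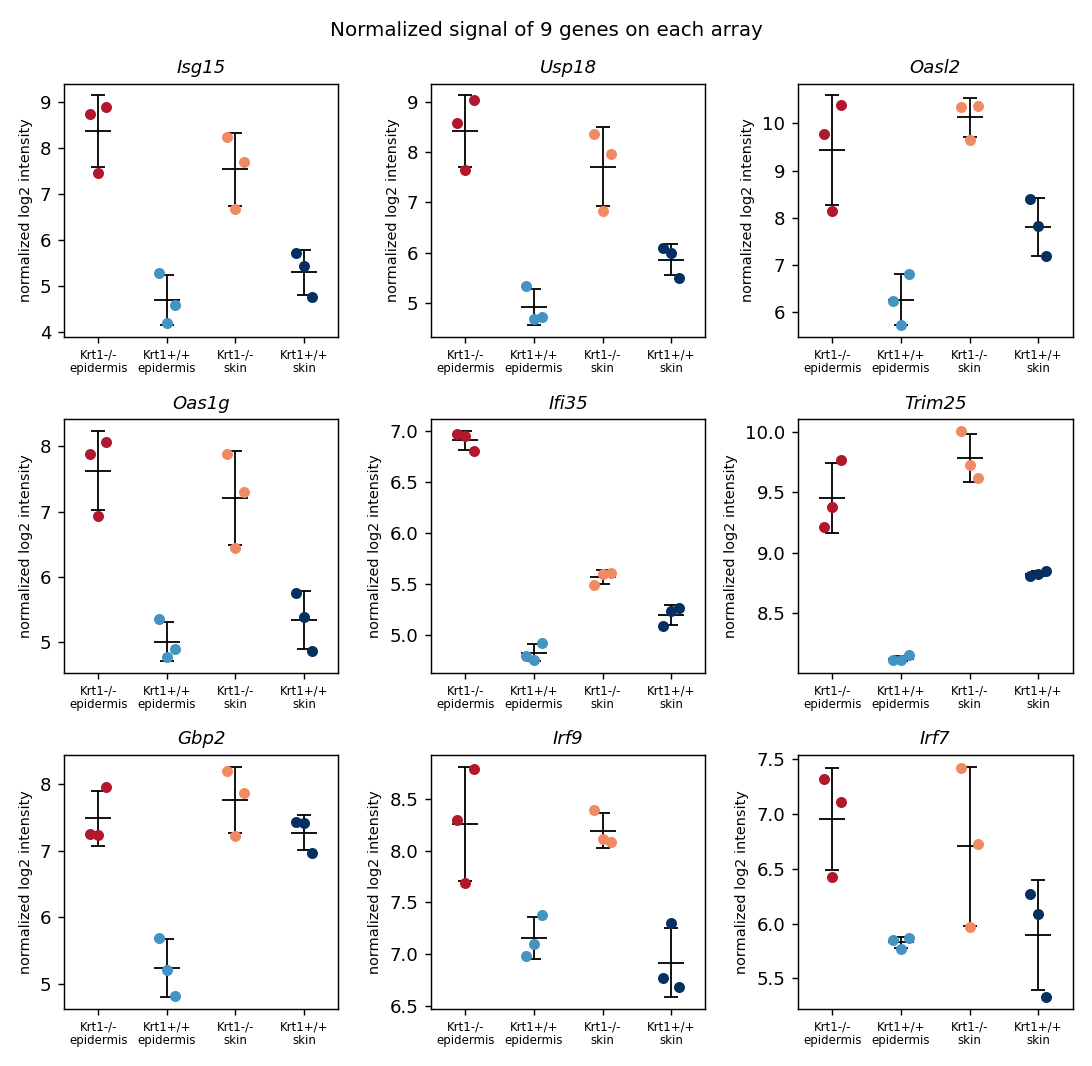
Normalized log2 intensity of 9 genes on each array by labelled group (points), with the group mean and SD (n = 3). For Isg15 the arrays labelled Krt1-/- epidermis sit between 7.46 and 8.88 and the Krt1+/+ epidermis arrays between 4.20 and 5.29, and for Gbp2 the Krt1+/+ skin arrays sit close to both Krt1-/- groups.

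Enzymatically active oligoadenylate synthetases make a messenger that activates RNase L, which degrades RNA. The family as listed also holds the synthetase-like genes Oasl1 and Oasl2, and enzyme activity was not measured. Of the 6 genes of this family, 4 rose in the average, beside 10.9% of all genes. In each tissue 3 rose, beside 15.0% of all genes in epidermis and 14.4% in skin. Oasl2 read 9.77, 8.15 and 10.40 on the arrays labelled Krt1-/- epidermis, against 6.24, 5.73 and 6.81 in Krt1+/+ epidermis. Values were 10.36, 9.66 and 10.37 in Krt1-/- skin and 8.41, 7.82 and 7.19 in Krt1+/+ skin. Every Krt1-/- array was above every Krt1+/+ array of its tissue, and Oasl2 rose by 3.18 ± 0.48 (9.07-fold, adjusted p = 3.4e-04) and 2.32 ± 0.48 (5.01-fold, adjusted p = 0.0029). By its second probe Oasl2 rose by 2.53 in epidermis (adjusted p = 9.3e-06) and read 0.47 in skin (adjusted p = 0.17), so the skin call depends on the probe.

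Oas1g, whose promoter stretch is shown above, read 7.88, 6.94 and 8.07 on the arrays labelled Krt1-/- epidermis, against 5.35, 4.78 and 4.90 in Krt1+/+ epidermis. For full-thickness skin the arrays gave 7.88, 6.45 and 7.30 in Krt1-/- and 5.75, 5.39 and 4.87 in Krt1+/+ mice. It rose by 2.62 ± 0.37 (6.14-fold, adjusted p = 1.9e-04) and 1.87 ± 0.37 (3.67-fold, adjusted p = 0.0019) without overlap. Its second probe rose by 1.56 and 0.62 in the same tissues. Oas1a, which carries nearly the same promoter stretch, was near background: it was detected on 2 of 3 arrays labelled Krt1-/- epidermis, 1 of 3 Krt1-/- skin arrays and 0 of 6 Krt1+/+ arrays. Its changes of 0.49 and 0.15 did not pass. The Oas1 genes are close copies, and which of them a probe reads was not tested.

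Oas2 rose in skin by 1.18 (adjusted p = 0.034), and its epidermis change of 1.02 did not pass (adjusted p = 0.061). Oasl1 was not well above background on any Krt1+/+ epidermis array and was at least 1.46-fold higher on the arrays labelled Krt1-/- epidermis (normalized log2 means 5.23 and 4.28, adjusted p = 0.040). Its second probe read 0.38 (adjusted p = 0.32). Oas3 was detected on 2 of 3 arrays labelled Krt1-/- epidermis, 1 of 3 in Krt1+/+ epidermis, 1 of 3 in Krt1-/- skin and 0 of 3 in Krt1+/+ skin, and its changes of 0.16 and 0.27 passed in neither tissue.

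Ifit proteins bind viral RNA. Ifit3 rose in epidermis by 2.56 ± 0.47 (5.91-fold, adjusted p = 0.0013) and read 0.39 ± 0.47 in skin (adjusted p = 0.58). By its brighter probe Ifit2 changed by 0.66 in epidermis and -0.04 in skin and passed in neither. By the other, Ifit2 rose by 1.36 in epidermis (adjusted p = 0.0066) and read -0.15 in skin, so its epidermis call depends on the probe. These genes are also members of a family of similar sequence, and cross-reading between them was not tested.

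Of 7 measured antiviral effectors, 6 rose in epidermis and 1 in skin, beside 15.0% and 14.4% of all genes. The skin count is near that share. Mx2, a dynamin-like GTPase, rose in both, by 1.19 (adjusted p = 0.0075) and 0.93 (adjusted p = 0.028). Bst2, or tetherin, holds budding virus particles at the cell surface. It averaged 6.55 ± 0.36 on the arrays labelled Krt1-/- epidermis and 4.48 ± 0.22 in Krt1+/+ epidermis (SD, n = 3 each), where 1 of 3 arrays detected it, and it rose by 2.07 there (4.20-fold, adjusted p = 0.0012). Its skin change of 0.95 did not pass (adjusted p = 0.073).

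Rsad2, or viperin, makes a nucleotide analogue that stops viral RNA synthesis, and Cmpk2, its neighbour on chromosome 12, is a mitochondrial nucleotide kinase. Both rose in epidermis, by 2.13 (adjusted p = 0.018) and 1.32 (adjusted p = 0.0077). In skin they changed by 0.13 and 0.60 and did not pass. Rsad2 had the widest spread of the members in Krt1+/+ epidermis, at 5.09, 5.53 and 7.63. Eif2ak2, the kinase PKR that halts translation on double-stranded RNA, rose by 1.26 in epidermis (adjusted p = 0.0012) and read 0.47 in skin (adjusted p = 0.14). Samd9l rose by 1.91 (adjusted p = 0.0025) in epidermis and read 0.11 in skin, and the exonuclease gene Isg20 passed in neither tissue.

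Parp14, an ADP-ribosyltransferase, read 7.50, 6.48 and 7.86 on the arrays labelled Krt1-/- epidermis, against 5.32, 5.07 and 5.32 in Krt1+/+ epidermis. In Krt1-/- skin it read 7.27, 6.64 and 7.54, against 6.80, 6.96 and 6.89 in Krt1+/+ skin. The genotypes were apart in epidermis, where Parp14 rose by 2.05 ± 0.30 (4.15-fold, adjusted p = 2.8e-04), and overlapped in skin, with a change of 0.27 ± 0.30 (adjusted p = 0.55). The second Parp14 probe read 0.03 and -0.03. Dtx3l, the ubiquitin ligase that pairs with Parp9, rose by 1.27 in epidermis and 0.73 in skin (adjusted p = 0.0017 and 0.037). By its second probe Dtx3l rose by 0.59 in epidermis (adjusted p = 0.039) and read -0.07 in skin.

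The 3 antigen-processing genes rose in epidermis and did not pass in skin, where 15.0% and 14.4% of all genes rose. Psmb8, a subunit of the immunoproteasome, read 5.46, 5.24 and 5.73 on the arrays labelled Krt1-/- epidermis, against 4.55, 4.18 and 4.35 in Krt1+/+ epidermis, where it was not well above background on any array. The Krt1-/- skin arrays read 4.83, 4.26 and 4.29 and the Krt1+/+ skin arrays 4.65, 4.72 and 4.53. The epidermis difference was at least 1.74-fold (adjusted p = 8.7e-04), and the skin groups overlapped. The second Psmb8 probe read 0.33 in epidermis (adjusted p = 0.30). Psmb9, another such subunit, rose by 1.40 in epidermis (adjusted p = 0.0010) and read 0.30 in skin (adjusted p = 0.41). Tap1, the transporter that carries peptides to class I molecules, rose by 1.22 (adjusted p = 0.0038) and read 0.48 in skin (adjusted p = 0.19).

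Gbp2 and Gbp3 encode guanylate-binding proteins, large GTPases that attack intracellular pathogens. Gbp2 read 7.26, 7.24 and 7.96 on the arrays labelled Krt1-/- epidermis, against 5.69, 5.21 and 4.82 in Krt1+/+ epidermis. Values were 8.2, 7.22 and 7.87 in Krt1-/- skin and 7.43, 7.42 and 6.97 in Krt1+/+ skin. It rose by 2.24 ± 0.29 in epidermis (4.74-fold, adjusted p = 1e-04), and its skin change of 0.49 ± 0.29 did not pass (adjusted p = 0.22).

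Gbp3 read 6.91, 5.97 and 7.27 on the arrays labelled Krt1-/- epidermis and 4.89, 4.35 and 5.0 in Krt1+/+ epidermis, where 2 of 3 arrays detected it. For full-thickness skin the arrays gave 7.66, 6.52 and 7.23 in Krt1-/- and 7.27, 6.83 and 6.33 in Krt1+/+ mice. It rose by 1.97 ± 0.36 in epidermis (3.91-fold, adjusted p = 0.0012) and overlapped between genotypes in skin (0.33 ± 0.36, adjusted p = 0.53). Gbp3's second probe read 1.96 and 0.80.

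Igtp and Irgm1 encode immunity-related GTPases. Igtp rose by 2.00 in epidermis (4.0-fold, adjusted p = 0.0011) and read 0.69 in skin (adjusted p = 0.17). Irgm1 was read by 2 probes detected on all 12 arrays, and they disagree. The brighter one, ILMN_2804037, read 12.49, 12.28 and 12.34 on the arrays labelled Krt1-/- epidermis, against 12.25, 12.28 and 12.51 in Krt1+/+ epidermis. In Krt1-/- skin it read 13.11, 12.75 and 13.03, against 11.72, 11.79 and 11.90 in Krt1+/+ skin. By this probe Irgm1 rose in skin by 1.16 ± 0.16 (2.23-fold, adjusted p = 1.6e-04) and read 0.02 in epidermis (adjusted p = 0.93). By the other, ILMN_1234539, it rose in epidermis by 2.06 ± 0.36 (adjusted p = 8.5e-04, fitted over probes) and in skin by 1.06 ± 0.36 (adjusted p = 0.041). Irgm1 was thus higher in Krt1-/- skin by both probes, while the epidermis result depends on the probe.

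Ifi35 had the smallest adjusted p of the members in epidermis and in the average. This gene encodes a leucine-zipper protein that binds Nmi. It read 6.97, 6.95 and 6.80 on the arrays labelled Krt1-/- epidermis and 4.80, 4.76 and 4.92 in Krt1+/+ epidermis. The Krt1-/- skin arrays read 5.49, 5.60 and 5.61 and the Krt1+/+ skin arrays 5.09, 5.24 and 5.27. The genotypes were apart in both tissues, and Ifi35 rose by 2.08 ± 0.14 in epidermis (4.23-fold, adjusted p = 8.6e-07). Its skin change of 0.37 ± 0.14 did not pass (adjusted p = 0.065).

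Rtp4, a receptor chaperone, was not well above background on any Krt1+/+ epidermis array and was at least 1.81-fold higher on the arrays labelled Krt1-/- epidermis (normalized log2 means 5.53 and 4.23, adjusted p = 0.0030). In skin Rtp4 rose by 0.78 (adjusted p = 0.047).

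The genotype effect differed between the tissues for 12 of the 37 genes (32.4%), a share close to the 30.9% of all genes, so it is not a result about these genes. The effect was higher in epidermis for 10 (Ifi35, Psmb8, Gbp2, Parp14, Dhx58, Ifit3, Samd9l, Gbp3, Psmb9 and Usp18) and higher in skin for 2 (Irgm1 and Ifih1). Of the 37 genes, 27% and 5.41% passed in these directions, against 15.8% and 15.1% of all genes. The count was 7 without Krt1-/- epidermis replicate 1, Krt1-/- epidermis replicate 3, Krt1-/- skin replicate 2 or Krt1+/+ skin replicate 1, each left out alone, and 8 without Krt1+/+ epidermis replicate 2. Of the 12 genes, 7 had a further probe, and the difference did not pass by it for 5 (Gbp3, Irgm1, Parp14, Psmb8 and Usp18). The Irgm1 difference had the opposite sign, 0.99, by the second probe. Psmb8 in Krt1+/+ epidermis and Ifih1 on the arrays labelled Krt1-/- epidermis were not above background, so their differences rest on levels that are only bounded.

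Without the mutation, 16 of the 37 genes were higher in skin than in epidermis and 1 was lower, against 19.8% and 22.0% of all genes. The median difference, Krt1+/+ skin minus Krt1+/+ epidermis, was 0.60 for the members and -0.03 for all genes. By adjusted p, the leading genes were Gbp2 (difference 2.03, 4.09-fold, adjusted p = 7.7e-05), Gbp3 (2.06, 4.17-fold, adjusted p = 4.1e-04) and Parp14 (1.65, 3.14-fold, adjusted p = 6.2e-04). The gene that was lower in skin was Irgm1 by its brighter probe (-0.54, adjusted p = 0.013). Without Krt1+/+ skin replicate 1 the count was 9, and without Krt1+/+ epidermis replicate 2 it was 11. These 2 groups also differ in table position. Averaged over both genotypes, where an additive position shift cancels, 11 genes were higher in skin and 3 lower, against 18.7% and 23.7% of all genes, and the median difference was 0.22. The genes higher in skin in that average included Cmpk2 (1.40), Gbp3 (1.24), Rsad2 (1.21), Gbp2 (1.16) and Irf1 (1.03), and those lower were Ifi35, Psmb8 and Tap1.

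The members moved together from array to array. After each group's mean was removed, their pairwise correlation across the 12 arrays averaged 0.425, and 572 of 666 pairs were above 0, while the average over all genes was 0.00084. These pairs share arrays and are a description. The members lay on average 0.46 below their group's mean on Krt1-/- epidermis replicate 2, where 5 of 37 were above it, and 0.47 below on Krt1-/- skin replicate 2, where 2 of 37 were above it. They lay 0.32 above on Krt1-/- skin replicate 1 and 0.24 below on Krt1+/+ skin replicate 3. The mean over all genes stayed within 0.02 of 0 on every array. Without Krt1-/- epidermis replicate 2 the members that passed in epidermis numbered 30, and without Krt1-/- skin replicate 2 those that passed in skin numbered 17.

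**Figure D4:**
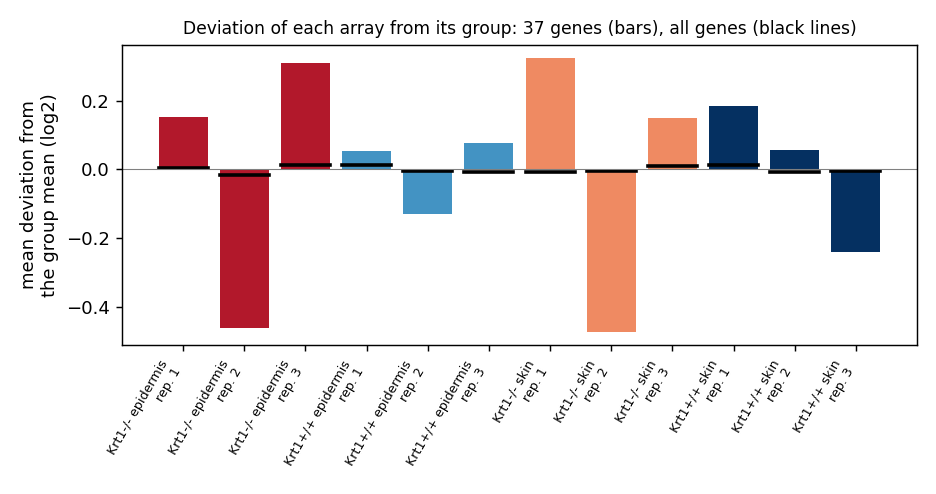
Mean deviation of the 37 genes from their group's mean (bars, log2) and the same over all genes (black lines) on each array, by labelled group and replicate. Replicate 2 of Krt1-/- epidermis and of Krt1-/- skin are the lowest bars, while the black lines stay near 0.

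Of the interferons themselves, 21 symbols were listed, among them Il28a and Il28b, older symbols of Ifnl2 and Ifnl3. Of these symbols, 18 had a probe and 5 were measured. None of these 5 rose or fell by limma's test in epidermis, skin or the average. Ifnb1 and Ifng were detected on 0 arrays. Ifnk, the keratinocyte interferon kappa, was near background, at 4.60, 5.08 and 4.51 on the arrays labelled Krt1-/- epidermis and 4.69, 4.77 and 4.4 in Krt1+/+ epidermis. Its changes were 0.11 in epidermis (adjusted p = 0.71) and 0.39 in skin (adjusted p = 0.14). Ifne, Ifna6 and Ifnab changed by 0.14, 0.17 and 0.16 in the average, with adjusted p of 0.45 to 0.58. RNA levels below detection on these arrays do not show that an interferon was absent.

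Of 8 measured receptor and kinase genes, 0 rose and 1 fell in the average, beside 10.9% and 13.2% of all genes. The 1 that fell was Ifnlr1, the type III interferon receptor chain, with a change of -0.38 (adjusted p = 0.016). Jak1 and Il10rb changed in opposite directions in the tissues. Jak1 read 6.40, 6.19 and 6.21 on the arrays labelled Krt1-/- epidermis, against 8.74, 9.09 and 9.08 in Krt1+/+ epidermis. Values were 9.19, 8.49 and 8.77 in Krt1-/- skin and 5.57, 5.08 and 5.90 in Krt1+/+ skin. The 6 high and 6 low arrays are those of the first and the last 6 columns, and the average change of 0.30 did not pass (adjusted p = 0.20). Il10rb fell by 2.04 in epidermis and rose by 1.26 in skin, with -0.39 in the average (adjusted p = 0.11). Jak2 changed by 0.46 in the average (adjusted p = 0.057).

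Among 12 pathway inhibitors, 1 rose and 1 fell in the average: Ptpn2, a phosphatase that acts on Jak and Stat proteins (0.52, adjusted p = 0.012), and Irf2bp1, a co-repressor that binds Irf2 (-0.71, adjusted p = 0.0042). Irf2bp2 (0.65) and Ptpn6 (-0.38) did not pass. Among 16 sensing adaptors and kinases, 2 rose and 1 fell. Beside the 10.9% of all genes that rose and the 13.2% that fell, the inhibitor and adaptor counts are not results about those lists. Myd88, the adaptor of Toll-like receptors, rose by 0.66 (adjusted p = 0.0049) and the ligase gene Traf6 by 0.59 (adjusted p = 0.041). Traf6 averaged 9.31 on the arrays labelled Krt1-/- epidermis, against 9.22 in Krt1+/+ epidermis, and 9.32 in Krt1-/- skin, against 8.23 in Krt1+/+ skin. Rnf135, a ubiquitin ligase for RIG-I, fell by 0.69 (adjusted p = 0.0029), and Sting1 read 0.69 (adjusted p = 0.051).

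Interferon-induced genes outside the 42 were listed too. Of 33 measured, 19 rose in the average and 0 fell, with a median of 0.70, beside the 10.9% of all genes that rose. In epidermis 17 rose and 1 fell (median 0.73), beside 15.0% and 16.8% of all genes. In skin 10 rose and 1 fell (median 0.32), beside 14.4% and 16.2%. Nlrc5, the activator of class I genes, read 7.06, 6.95 and 6.85 on the arrays labelled Krt1-/- epidermis, against 5.17, 4.44 and 4.52 in Krt1+/+ epidermis. For full-thickness skin the arrays gave 6.33, 6.42 and 6.51 in Krt1-/- and 5.05, 4.69 and 4.83 in Krt1+/+ mice. It rose by 2.24 ± 0.20 and 1.56 ± 0.20, with no overlap in either tissue. Ifi27l2a rose by 3.30 in epidermis and 1.36 in skin (adjusted p = 4.2e-05 and 0.016). Slfn2 was at least 4.37-fold higher in epidermis and rose by 1.15 in skin (adjusted p = 7.6e-06 and 0.0015). Phf11d rose by 2.66 in epidermis and read 0.85 in skin (adjusted p = 1.9e-04 and 0.10).

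Class I molecules display cytosolic peptides at the cell surface. Of 12 measured class I partner genes, 9 rose in the average and 0 fell, beside 10.9% and 13.2% of all genes. Their median change was 0.72. In epidermis 9 rose and 1 fell (median 0.96), beside 15.0% and 16.8% of all genes. In skin 2 rose and 1 fell (median 0.16), beside 14.4% and 16.2%, so the count in the average rests mainly on epidermis. By these arrays the class I heavy chains H2-D1 and H2-K1 changed in different tissues. H2-D1 read 10.93, 10.08 and 10.38 on the arrays labelled Krt1-/- epidermis, against 7.77, 7.68 and 8.34 in Krt1+/+ epidermis, and its change in skin was 0.04 (adjusted p = 0.93). H2-K1 read 9.61, 9.16 and 10.11 on Krt1-/- skin arrays, against 6.75, 6.12 and 6.45 on Krt1+/+ skin arrays, and its change in epidermis was 0.02 (adjusted p = 0.97). The difference between tissues passed for both (adjusted p = 6.8e-04 for H2-D1 and 1.5e-04 for H2-K1). An additive shift between the first and last 6 columns doubles in this difference. Within a tissue, such a shift and genotype cannot be told apart. Heavy chain genes are similar in sequence and differ between mouse strains, and which copies these probes read was not tested. H2-T23 and Psmb10 rose in the average by 0.87 and 0.68 (adjusted p = 0.0060 and 0.0057).

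Of 7 measured targets of type II interferon, the chemokine genes Cxcl9 and Cxcl10 rose in the average and the 5 class II genes fell: Cd74, H2-Aa, H2-Ab1, H2-Eb1 and H2-DMa. The shares over all genes were 10.9% rising and 13.2% falling. Cxcl9 was not above background on any Krt1+/+ epidermis array and was at least 2.98-fold higher on the arrays labelled Krt1-/- epidermis (adjusted p = 2.9e-04), and it rose by 0.98 in skin (adjusted p = 0.018). Cxcl10, also not above background in Krt1+/+ epidermis, was at least 1.34-fold higher there (adjusted p = 0.026) and read 0.32 in skin (adjusted p = 0.38). H2-Ab1 fell by 1.25 in epidermis and by 1.90 in skin (adjusted p = 0.019 and 0.0018). Cd74, the chaperone of class II molecules, fell by 2.30 in skin and read -0.22 in epidermis. H2-Aa fell by 3.04 in epidermis and read -0.06 in skin. Here too, table position and genotype cannot be told apart within a tissue.

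**Figure D5:**
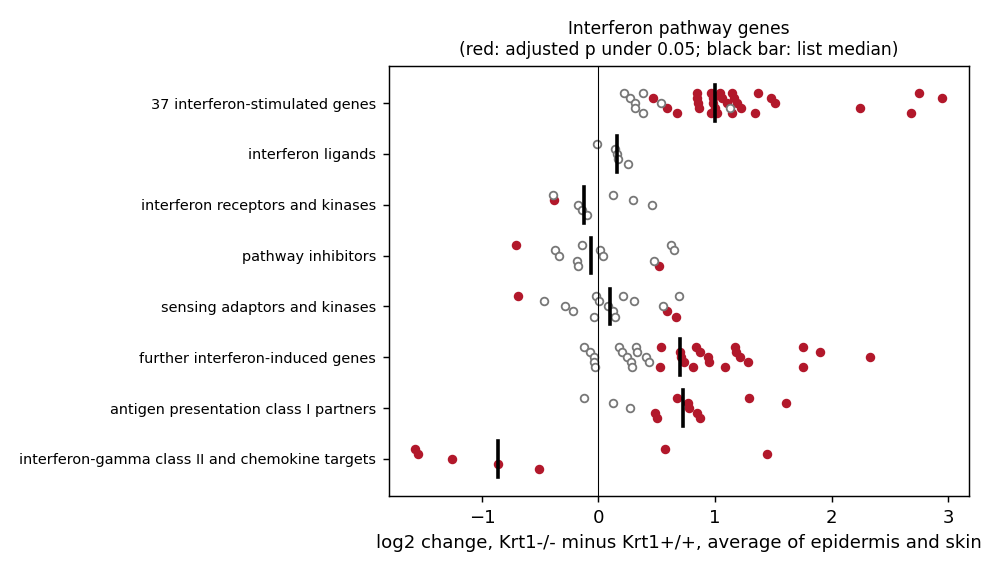
Log2 change, Krt1-/- minus Krt1+/+, averaged over epidermis and skin, for the 37 genes and 7 lists of pathway genes (1 point per gene, filled red where the adjusted p was under 0.05, black bar at the list median). All 37 interferon-stimulated genes lie to the right of 0 with a median of 1.00, and the 5 interferon ligands lie near 0 and none passed.

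Markers of cell types that newborn epidermis or skin could hold were read beside these results, and their part in them was not tested. Marker counts in the genotype average stand beside 10.9% of all genes rising and 13.2% falling. All 7 measured fibroblast markers were higher in skin than in epidermis, averaged over genotypes, beside 18.7% of all genes. Their summed linear intensity ran from 23839 to 26734 in Krt1-/- skin, against 36365 to 39551 in Krt1+/+ skin. Epidermis gave 3679 to 5091 on the arrays labelled Krt1-/-, against 4627 to 6882 in Krt1+/+. Dcn made up 27.9 to 95.5% of this sum. Of 4 endothelial markers, 3 fell in skin, where 16.2% of all genes fell. They summed to 609 to 783 in Krt1-/- skin, against 1100 to 1356 in Krt1+/+ skin. Of 6 measured neutrophil markers, 4 rose in the average, with S100a8 and S100a9 at 4.01 and 4.38. Keratinocytes can make both of these under stress. Summed linear intensity of the 6 ran from 7493 to 12245 on the arrays labelled Krt1-/- epidermis, against 325 to 798 in Krt1+/+ epidermis, and from 3300 to 10389 in Krt1-/- skin, against 334 to 840 in Krt1+/+ skin. S100a8 and S100a9 made up 66.0 to 99.0% of this sum. Retnlg and Cxcr2 also rose in the average, and Camp and Csf3r did not pass. Ngp was detected on 1 array.

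Of 7 macrophage and dendritic cell markers, Cd14 rose in the average and 0 fell. Their sum ran from 796 to 1252 on the arrays labelled Krt1-/- epidermis, against 525 to 973 in Krt1+/+ epidermis, and from 2030 to 2810 in Krt1-/- skin, against 3053 to 4246 in Krt1+/+ skin. Plasmacytoid dendritic cells are specialised producers of type I interferon. Of their 4 measured markers, Bst2, itself one of the 37 genes, rose and Tcf4 fell in the average. Siglech, a receptor of these cells, fell by 1.17 in epidermis and rose by 1.06 in skin, with -0.05 in the average. The 4 summed to 668 to 1060 on the arrays labelled Krt1-/- epidermis, against 1212 to 2003 in Krt1+/+ epidermis, and to 2232 to 2815 in Krt1-/- skin, against 2808 to 3694 in Krt1+/+ skin. Tcf4, which many cell types express, made up 74.5 to 96.5% of this sum.

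Of 5 measured T cell markers 3 fell: Cd3d, Cd3e and Cd3g, subunits of the T cell receptor complex, fell in the average by 1.22, 1.40 and 1.07, and 0 rose. The 5 summed to 401 to 646 on the arrays labelled Krt1-/- epidermis, against 366 to 540 in Krt1+/+ epidermis, and to 616 to 964 in Krt1-/- skin, against 2456 to 2939 in Krt1+/+ skin. This sum follows Thy1, which other cells also express and which made up 30.7 to 95.7% of it. Thy1 rose by 1.54 in epidermis (adjusted p = 8.5e-04), where Cd3d, Cd3e and Cd3g fell by 1.69, 1.88 and 1.60. Of 2 natural killer markers 0 rose and Nkg7 fell, and Ncr1 and Gzmb were detected on 0 arrays. Of 3 Langerhans cell markers Cd74 and Mfge8 fell, and Cd207 was detected on 1 array. The 6 keratinocyte markers had 0 that rose or fell in the average. In the separate tissues Krt5 rose by 1.48 in epidermis and fell by 1.40 in skin. Perp fell by 2.66 in epidermis and rose by 3.02 in skin. Within each tissue, table position and genotype cannot be told apart. The 6 summed to 53547 to 58057 on the arrays labelled Krt1-/- epidermis, against 49217 to 61075 in Krt1+/+ epidermis.

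Matches to the response element were found among genes that rose and among genes that did not. Of the 30 measured genes with a window, 23 rose in the average and 11 of these held the response-element core. Of the 7 that did not pass, 4 held it. Oasl2, Trim25, Ifi35, Irf9 and Irf7 rose and held no match in their windows, while Oas1a, Oas3, Ifih1 and Rsad2 held one and did not pass in the average. No match says only that these letters are not in the window.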

How the data were processed

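Per the labels' protocols, total RNA was isolated with Trizol, cleaned on columns and turned into biotinylated cRNA. The authors deposited a non-normalized table of intensity per probe, whose values lie well above 0 and show no background subtraction. Per the file headers, each intensity comes with its detection p-value. Another deposited table holds normalized intensity, by a method that the sources used here do not name. Intensities were background-corrected and quantile normalized (limma 3.58.1, function neqc, offset 16; R 4.3.3) and put on the log2 scale. Of 45281 probes, 34885 had 1 gene symbol in the platform annotation, 18 several and 10378 none. Probes with a detection p under 0.05 on at least 3 arrays were kept (21712, of which 18687 had 1 gene), and each of 12099 genes was read by its brightest. One limma fit (lmFit, contrasts.fit, eBayes) over the 12 arrays and 4 groups gave every contrast, with Benjamini-Hochberg adjustment over all 12099 genes and a threshold of 0.05. Folds are of background-corrected values. A gene not detected on any array of 1 group has a lower bound, with that group at the lowest detected signal of each array. The fit was tested on simulated data.

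The members, lists, tests and alternatives were chosen with earlier results of these data known. Values on every array are given for the 8 genes with the smallest p in the average, 4 in epidermis, 4 in skin, 4 in the difference and 3 in skin against epidermis, plus Isg15, Irf7, Stat2 and Irf9. From each pathway list the 4 genes with the smallest p in the average are named, with Ifnk and Cxcl10; another gene of that rule is not reported here. Other genes are named by log2 change or by count. Median signals of 93.3 to 105.1 lie close to background, so changes of dim genes are compressed. No member neared saturation: the highest read 10544, and the brightest probe of an array at least 21229. Groups came from the labels. With 3 arrays per group, their number limits the precision.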

Additional observations from a re-analysis of the deposited data

Results flagged for a closer look

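For 12 genes the genotype effect differed between epidermis and skin by a test of that difference (epidermis minus skin, log2). Of all genes, 30.9% passed the same test, and an additive shift between the first and last 6 sample columns doubles in this difference. Ifi35 had a difference of 1.71 (2.08 in epidermis and 0.37 in skin, adjusted p = 3.2e-05). Irgm1 had -1.13 by its brighter probe (0.02 and 1.16, adjusted p = 0.0017). Psmb8 had 1.29 (1.12 and -0.18, adjusted p = 0.0031), Gbp2 1.75 (2.24 and 0.49, adjusted p = 0.0056) and Parp14 1.78 (2.05 and 0.27, adjusted p = 0.0066). Ifih1 had -1.62 (-0.42 and 1.20, adjusted p = 0.0078) and Dhx58 1.80 (1.88 and 0.08, adjusted p = 0.010). Ifit3 had 2.17 (2.56 and 0.39), Samd9l 1.80 (1.91 and 0.11) and Gbp3 1.64 (1.97 and 0.33), with adjusted p of 0.025, 0.025 and 0.026. Psmb9 had 1.10 (1.40 and 0.30, adjusted p = 0.031) and Usp18 1.65 (3.51 and 1.86, adjusted p = 0.037). Psmb8 was not above background in Krt1+/+ epidermis, nor Ifih1 on the arrays labelled Krt1-/- epidermis, so their epidermis values and differences are not exact. By a further probe the differences of Psmb8, Parp14, Gbp3, Irgm1 and Usp18 did not pass. Position in the table and genotype cannot be told apart within a tissue.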

How the results depend on the processing

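The count of genes that passed in the average, in either direction, was 27 to 30 of 37 under the other processing settings and 28 to 31 with each array left out. The cause of the following changes was not tested. Without background correction and with the deposited normalized table, the median change was 0.60 and 0.60 in epidermis, 0.47 and 0.48 in the average, 0.27 and 0.28 in the difference and 0.25 and 0.25 in Krt1+/+ skin against epidermis. The difference then had 7 genes that passed in either case, and also 7 with no detection filter. In skin 8 passed with median centring. Within the last 6 columns, an alternative chosen after the data were seen, 18 passed. With the other Irgm1 probe the Irgm1 difference was 0.99 (adjusted p = 0.17) and its skin against epidermis difference 0.63 (adjusted p = 0.18), both opposite in sign. With each array left out, 25 to 30 genes passed in epidermis, 9 to 17 in skin, 7 to 15 in the difference and 9 to 18 in Krt1+/+ skin against epidermis. The medians ran from 1.17 to 1.42, 0.46 to 0.87, 0.40 to 0.91 and 0.53 to 0.70, and from 0.90 to 1.15 in the average. The Usp18 difference lost its call in 10 of its alternatives (adjusted p = 0.073 to 0.14). For single genes, 1082 results kept direction and side of the threshold, 25 lost the call, 17 gained it, 12 uncalled values changed sign and 2 called ones did. The deviations of same-numbered arrays over all genes correlated at -0.21 to 0.065 between genotypes within a tissue and at -0.15 to 0.28 between tissues within a genotype. Over all genes, not every pair was above 0.1 in any of these comparisons, and the numbers were not used as pairs. Over the 37 genes, Krt1-/- epidermis and Krt1-/- skin correlated at 0.43, 0.53 and -0.0022 (replicates 1, 2 and 3). Krt1+/+ epidermis and skin correlated at -0.26 to -0.15, and genotypes within a tissue at -0.28 to 0.36. Sharing of an animal by same-numbered arrays was not tested, and the fit takes all arrays as independent. With a replicate block, 29 genes passed in epidermis, 15 in skin and 30 in the average, against 28, 14 and 29.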
